A study of Mus musculus with 27 samples.

Results

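Broad domains of the repressive histone mark H3K27me3 were compared between fetal and adult blood progenitors of the mouse. A domain was made by joining autosomal peaks of the H3K27me3 (titles) list of 1 age wherever the gap between neighbours was 5 kb or less, and joined regions of 10 kb or more were kept. The domains were thus chosen by the positions of these peaks, and their widths, peak counts and folds are given as a description. The rule gave 4129 domains, 2164 of 22758 joined regions in the fetal list (9.51%) and 1965 of 16946 in the adult list (11.6%). All animals were of the B6 background, with no other allele or treatment named in the labels. Fetal hematopoietic progenitor cells (HPC) came from embryos at E16.5 and adult HPC from mice 8 weeks old. The lists of HPC H3K27ac and H3K4me1, and of H3K4me1 in hematopoietic stem cells (HSC), were set beside the domains at both ages. The labels give neither the sort gates, nor the sex of the animals, nor whether animals were pooled, and they name no tissue of origin beyond the cell type.

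The mark of the libraries behind the domains carried conflicting labels, since the sample titles name H3K27me3 and the mark field names H3K27ac. The name H3K27me3 (titles) is used here for that reason. Of the H3K27ac regions of 10 kb or more made by the same joining, 0 of 955 fetal and 0 of 2427 adult regions touched a domain of their own age, which allows shares of up to 0.314% and 0.124%. Of 9 progenitor marker genes such as Kit and Runx1, 9 held an H3K27ac peak at each age and 0 touched a domain at either age. Among all autosomal coding genes, 56.7% held H3K27ac in fetal and 64.1% in adult HPC. Only 6.51% of them touched a fetal and 4.98% an adult domain, so 0 of 9 is near the background. The authors pooled 2 fetal and 3 adult libraries into 1 peak list each, so the spread between libraries cannot be measured and the comparisons have no test. The depth of the libraries is unknown. Intervals are 95% Wilson intervals for shares and Newcombe intervals for differences, and they cover counting error alone. Neighbouring domains, a domain and its flanks, genes of 1 cluster and promoters of 1 gene are not independent of each other. The intervals for differences between domains and flanks take no account of this pairing.

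H3K27me3 is placed by the Polycomb repressive complex PRC2, whose catalytic subunit is Ezh2 or Ezh1, and is read by the Cbx proteins of PRC1. The mark spreads over neighbouring nucleosomes and holds genes of other lineages silent, above all transcription factors of the embryo. It often starts at promoters rich in CpG, the dinucleotide of C followed by G. H3K27ac lies on the same lysine and marks active promoters and enhancers, so a nucleosome tail cannot carry both at that position. H3K4me1 marks enhancers and promoter flanks, active or poised.

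The sequences below show the promoters on which the results turn, one of a lineage factor inside domains of both ages, one of a Hox gene inside domains of both ages, one that lay in a domain in adults alone, and a housekeeping promoter outside domains. They are the 250 bases before the transcription start, 5′ to 3′ along the gene, from the RefSeq promoter table for GRCm38.p6 (mm10), with every CpG in capitals. Twist2, a basic helix-loop-helix factor of mesoderm, has its promoter at chr1:91801211-91801460 on the plus strand. Hoxd3, a body patterning factor, has it at chr2:74711743-74711992 on the plus strand. Lin28b, the RNA-binding protein that blocks maturation of let-7 microRNAs and drives fetal blood formation, has it at chr10:45470202-45470451 on the minus strand. Arf1, a GTPase of vesicle transport, has it at chr11:59228268-59228517 on the minus strand.
Twist2: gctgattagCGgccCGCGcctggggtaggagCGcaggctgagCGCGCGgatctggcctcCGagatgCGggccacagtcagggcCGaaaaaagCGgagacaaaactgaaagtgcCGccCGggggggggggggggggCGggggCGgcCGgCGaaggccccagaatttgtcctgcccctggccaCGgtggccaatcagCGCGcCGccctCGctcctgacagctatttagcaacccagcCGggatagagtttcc
Hoxd3: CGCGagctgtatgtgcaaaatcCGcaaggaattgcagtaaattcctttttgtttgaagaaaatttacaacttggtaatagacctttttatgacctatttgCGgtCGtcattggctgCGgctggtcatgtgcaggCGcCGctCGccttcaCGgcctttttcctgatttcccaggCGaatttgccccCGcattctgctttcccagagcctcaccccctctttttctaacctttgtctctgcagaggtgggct
Lin28b: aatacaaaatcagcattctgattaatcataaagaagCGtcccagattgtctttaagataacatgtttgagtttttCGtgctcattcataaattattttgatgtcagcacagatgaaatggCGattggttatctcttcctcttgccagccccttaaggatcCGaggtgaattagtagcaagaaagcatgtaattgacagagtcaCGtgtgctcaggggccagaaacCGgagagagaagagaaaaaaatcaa
Arf1: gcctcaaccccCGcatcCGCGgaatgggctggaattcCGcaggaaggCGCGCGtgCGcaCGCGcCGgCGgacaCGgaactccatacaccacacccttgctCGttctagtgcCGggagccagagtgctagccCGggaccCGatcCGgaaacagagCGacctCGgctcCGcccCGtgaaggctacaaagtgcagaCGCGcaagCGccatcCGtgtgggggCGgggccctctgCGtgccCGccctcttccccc

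These stretches held 23 CpG in Twist2, 12 in Hoxd3, 6 in Lin28b and 29 in Arf1. Twist2 and Hoxd3 lay in domains of both ages with no H3K27ac at either age, and an adult HPC H3K4me1 peak covered 300 of the 300 bases from 250 before to 50 after each start. Fetal HPC H3K4me1 covered 0 of these bases at both genes. Lin28b had the same HPC H3K4me1 values, and Arf1 had 85 adult and 0 fetal bases. Lin28b had fetal H3K27ac over 300 bases and adult H3K27ac over 0. Arf1 had H3K27ac over 300 bases at both ages and no domain.

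A fetal domain was 15.7 kb wide in the median and held 7 peaks, and the widths ran from 10.0 to 377 kb. An adult domain was 15.9 kb wide in the median and held 8 peaks, and the widths ran from 10.0 to 355 kb. Peaks filled a median of 39.2% of a fetal and 26.5% of an adult domain. Domains spanned 46.0 Mb in the fetal and 40.1 Mb in the adult list, of which 19.9 and 11.7 Mb lay under peaks. Fetal domains over 50 kb numbered 106 and adult ones 75, and over 100 kb there were 18 and 8. The lists differ in strength, which bears on every comparison between ages. A −log10 q of 2 or more was reached by 53.9% of the autosomal fetal peaks and 21.5% of the adult peaks, and 99.0% of the fetal and 85.4% of the adult domains held at least 1 such peak. The fetal regions nearest the width limit were 9989, 9990 and 9995 bp on the outside and 10003, 10008 and 10013 bp on the inside. In the adult list they were 9991, 9992 and 9998 bp outside and 10000, 10007 and 10014 bp inside.

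**Figure D1:**
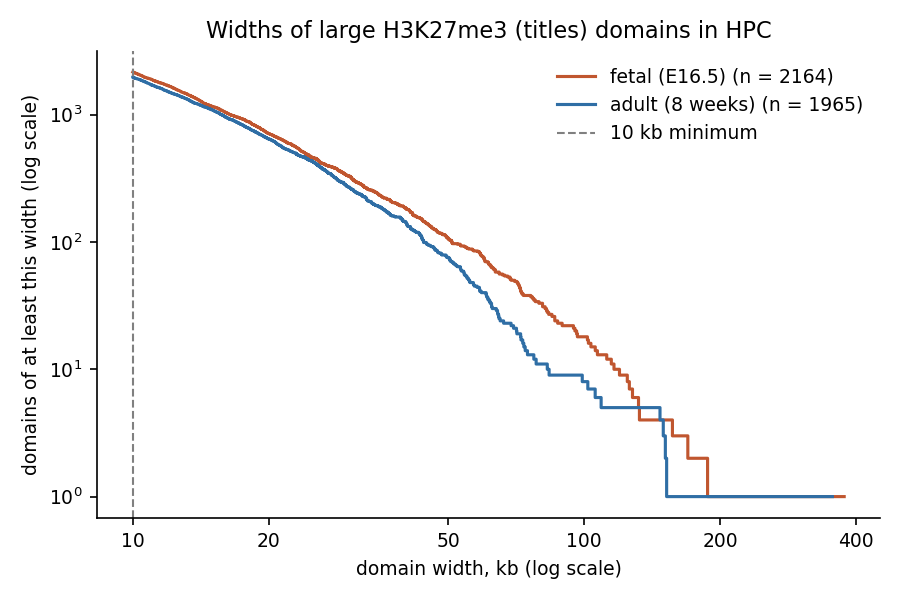
Number of domains (log scale) that are at least as wide as the value on the x axis (kb, log scale) for the 2164 fetal and 1965 adult domains, with the 10 kb minimum dashed. Both curves fall steeply, and 18 fetal against 8 adult domains pass 100 kb.

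The widest domain of both ages was the HoxC cluster, whose 9 genes pattern the body axis. The fetal domain at chr15:102747659-103124416 spanned 377 kb with 159 peaks and a highest fold of 8.64, as the authors give it for each peak. The adult domain at chr15:102745147-103099897 spanned 355 kb with 210 peaks and a highest fold of 6.07. Next in the fetal list came a stretch of 188 kb without a coding gene, 59612 bp from Irs1, the insulin receptor substrate, at chr1:81985809-82173493, of which adult domains covered 26.9%. Pard3, a cell polarity gene, held 170 kb in the fetal and 150 kb in the adult list. Lifr, a receptor of leukemia inhibitory factor, shared a domain of 157 kb in fetal and 147 kb in adult HPC with its neighbour Egflam. Zic1 and Zic4, zinc-finger factors of the neural tube, shared a fetal domain of 125 kb, of which adult domains covered 72.3%. In the adult list the widest after HoxC lay 8394 bp from Pax2, a kidney and midbrain factor (152 kb), and over Barhl2, a homeobox factor of the retina (151 kb). The forebrain gene Emx2 (109 kb), the junction scaffold Magi1 (106 kb) and En2, an engrailed factor of the midbrain, with Cnpy1 (102 kb) followed Pard3 and Lifr. All 10 widest domains of each age held 0 bases of H3K27ac of their own age.

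Of 268 autosomal developmental regulators, the union of the Hox, homeobox, bHLH, T-box, Sox, forkhead and GATA, zinc-finger and nuclear receptor lists, 194 touched a fetal domain (72.4%, 66.7 to 77.4) and 173 an adult domain (64.6%, 58.7 to 70.0). The background was 6.51% of 20665 autosomal coding genes for fetal and 4.98% for adult domains. Domains of both ages held 169 of them against a background of 3.72%, a fetal domain alone held 25 against 2.79%, and an adult domain alone held 4 against 1.26%. The order of the ages turned when each list was held to its strongest 20 Mb, with 57.1% of the regulators in fetal and 59.3% in adult domains. The shares fell to 42.9% and 18.7% with a gap of 2 kb, to 66.0% and 22.8% with peaks of −log10 q of 2 or more alone, and to 43.7% and 4.48% with at least 50% of the domain under peaks. Homeobox factors outside the Hox clusters, which set organ and neuron identity, had 78 of 87 in fetal and 70 of 87 in adult domains. Pax6 of the eye, Nkx2-5 of the heart, Isl1 of motor neurons and Cdx2 of the gut were among the 69 in both. The bHLH factors, such as Olig2 of glia and motor neurons and Hand2 of the heart, had 23 and 22 of 37. T-box factors had 9 of 15 at each age, the same genes, Tbx5 of the heart and Tbr1 of the cortex among them. Forkhead factors had 19 and 14 of 32, and Foxb2, Foxc2, Foxd2, Foxe3 and Foxl1 lay in fetal domains alone. Sox factors had 8 and 6 of 18. The GATA, zinc-finger and nuclear receptor list had 30 and 28 of 40, with Gata4 and Gata6 of heart and endoderm in both.

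**Figure D2:**
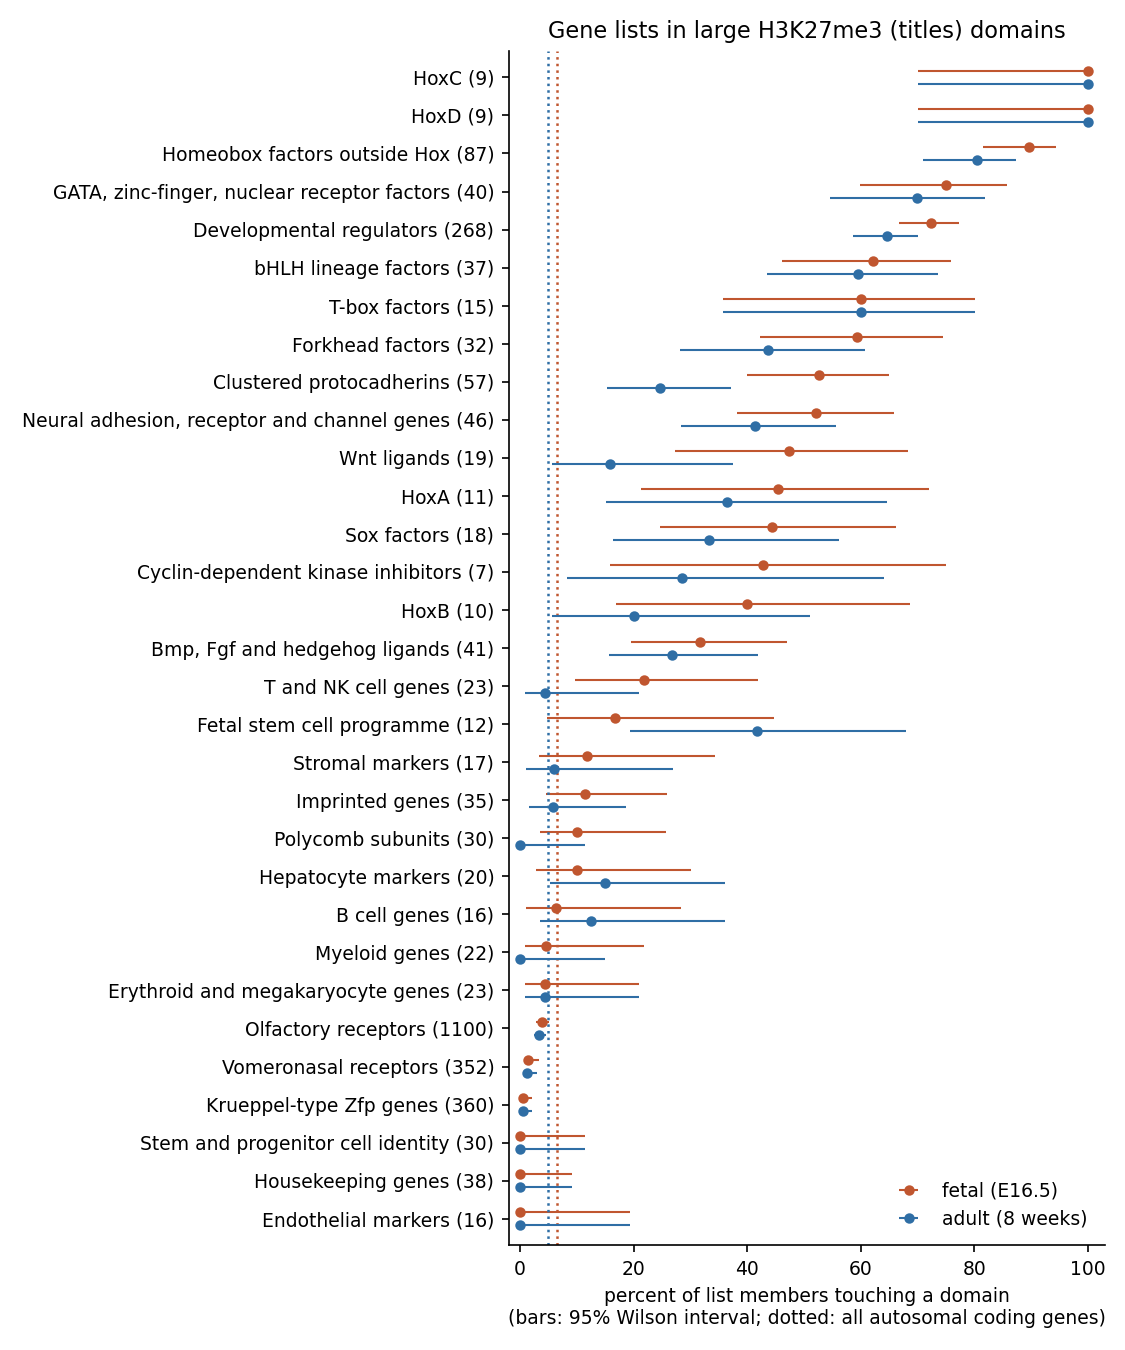
Percent of the members of each gene list (members in brackets) whose body touched a fetal or an adult domain, with 95% Wilson intervals and the share of all coding genes dotted (6.51% fetal, 4.98% adult). HoxC and HoxD stand at 100%, while stem and progenitor, housekeeping and endothelial genes stand at 0 at both ages.

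The 4 Hox clusters divided by cluster and by position. HoxC and HoxD lay in domains with 9 of 9 genes each at both ages, and 0 of these genes had an H3K27ac peak at either age. Among all coding genes, 56.7% had H3K27ac in fetal and 64.1% in adult HPC. In HoxD 1 fetal domain ran over Evx2 and all 9 genes at chr2:74642930-74774886 (132 kb). In the adult list the cluster was split into 2 domains, 1 of 26.2 kb over Evx2 and Hoxd13 and 1 of 99.0 kb over the rest, which took in 32.3% of Hoxd12. HoxA was covered in part. Hoxa10, Hoxa11 and Hoxa13 lay in 1 domain of 40.3 kb in fetal and 41.3 kb in adult HPC, with 40.6% of Hoxa10 inside at each age. Hoxa2 lay in a fetal domain alone. Hoxa3, Hoxa4, Hoxa5, Hoxa6, Hoxa7 and Hoxa9 touched no domain. Hoxa9 and Hoxa7 are the HoxA genes best known from blood stem cells, and each had H3K27ac at both ages. In HoxB, Hoxb13 and Hoxb9 lay in domains of both ages and Hoxb7 and Hoxb8 in fetal domains alone, while Hoxb1 to Hoxb6 touched none. Hoxb4, which expands blood stem cells when overexpressed, had 2 H3K27ac peaks in its body at each age.

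**Figure D3:**
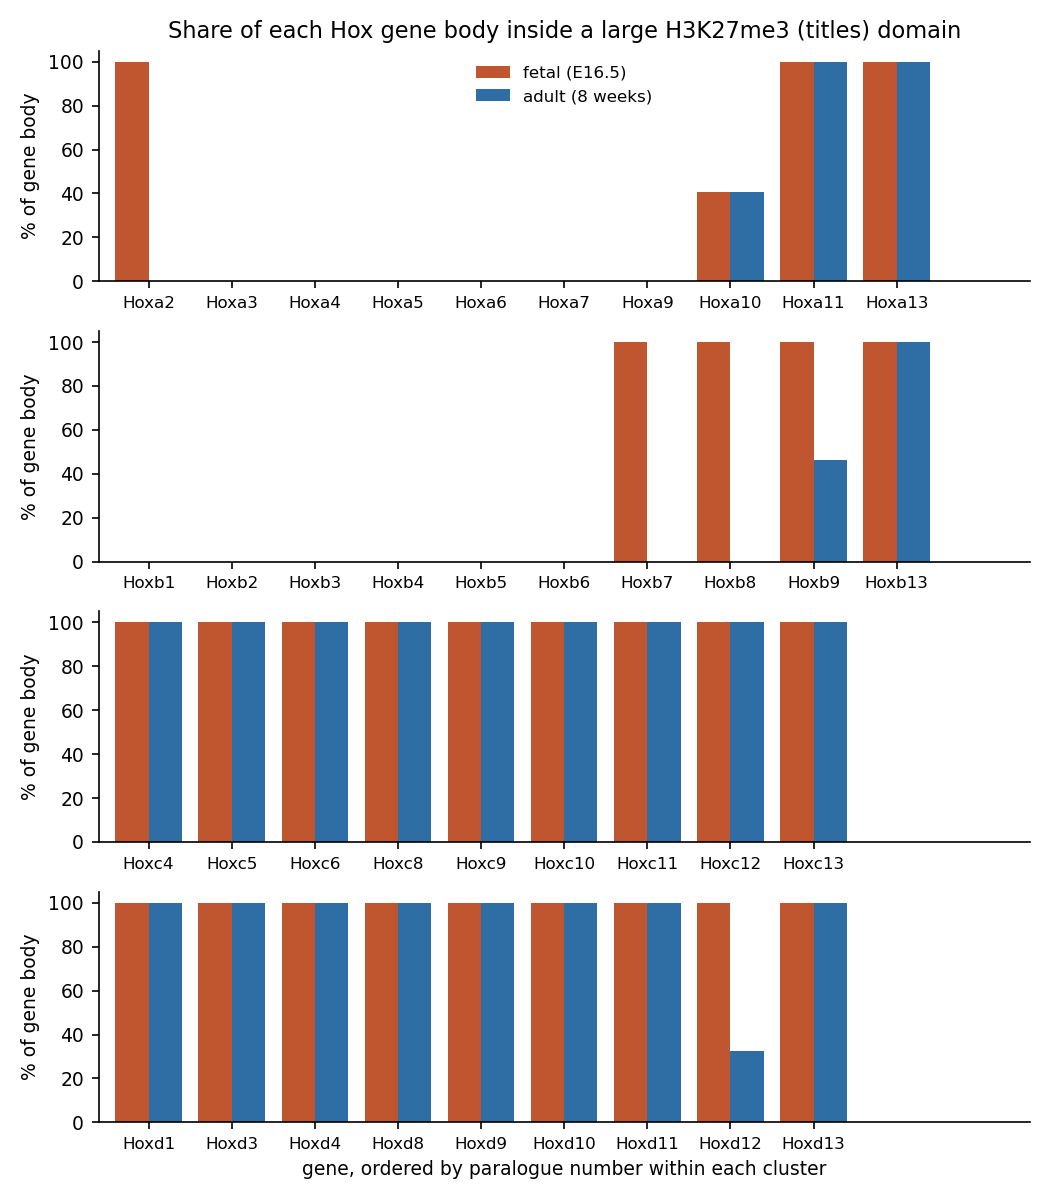
Share of the body of each Hox gene shown (percent, y axis) inside a fetal or adult domain, by cluster and paralogue number. HoxC and HoxD are filled at both ages except Hoxd12 in adults (32.3%), and the middle of HoxA and the front of HoxB are empty.

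Genes of blood cells were counted by class. Of 30 stem and progenitor identity genes, such as Kit, Meis1 and Gata2, 0 touched a domain at either age, and of 38 housekeeping genes 0 did. The intervals ran from 0 to 11.4% for the first list and to 9.18% for the second. Both include the backgrounds of 6.51% for fetal and 4.98% for adult domains. H3K27ac lay at 27 and 29 of the 30 and at 38 of the 38. Among all coding genes it lay at 56.7% in fetal and 64.1% in adult HPC. Myeloid genes had 1 fetal member of 22, S100a9, a calcium-binding protein of neutrophils, and 0 adult members. Erythroid and megakaryocyte genes had Ank1, the erythroid ankyrin, in both and 0 others of 23. These shares, of 4.55% and 4.35% in fetal domains, were near the background of 6.51%. Among 16 B cell genes, Pax5, the factor that commits cells to the B lineage, lay in domains of both ages, and Ebf1, its partner early in that lineage, in adult domains alone. These B cell shares, 6.25% in fetal and 12.5% in adult domains (3.50 to 36.0), stand beside the backgrounds of 6.51% and 4.98%. Ebf1 is a long gene, and its 4 adult domains, of 10.1 to 16.3 kb, took in 12.9% of its body. Its body held 45 adult and 6 fetal peaks, and no fetal joined region there reached 10 kb. The state of Ebf1 was kept under 1 of 7 other ways of making domains, and with a gap of 10 kb or a minimum of 5 kb it also lay in fetal domains. Of 23 T and NK cell genes, 5 touched fetal domains (21.7%, 9.66 to 41.9) and 1 touched an adult domain (4.35%), against 6.51% and 4.98% of all coding genes. Eomes, a T-box factor of cytotoxic cells, was in both. Bcl11b and Gata3, factors of T cell commitment, Cd3e, a subunit of the T cell receptor complex, and Gzmb, a protease of killer cells, were in fetal domains alone, against a background of 2.79%. This was kept under 3 of the 7 alternatives for Bcl11b and Gata3 and under 2 for Cd3e and Gzmb, which lost the fetal domain with the strongest 20 Mb of each list. Bcl11b and Gata3 gained an adult domain with a minimum of 5 kb. The Bcl11b domain spanned 38.0 kb with 15 peaks, and 11 adult peaks lay in the gene body but were not joined to 10 kb. Over the 23 T and NK cell genes, 7 held a fetal and 8 an adult H3K27me3 (titles) peak of any width. Among all 20665 coding genes, 3944 held a fetal and 3002 an adult peak. The ages thus differed here in joined domains and not in the number of genes with a peak.

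In the other lists the counts were small, and the background for each was 6.51% of all coding genes in fetal and 4.98% in adult domains. Cdkn2a and Cdkn2b, inhibitors of the cell cycle and classic Polycomb targets, lay wholly in domains at both ages, of 72.1 kb in fetal and 47.3 kb in adult HPC. Cdkn2c, an inhibitor of the same family, lay in a fetal domain of 15.6 kb, which was 85.3% under peaks with a highest fold of 6.04, touched 0 adult peaks and held 832 bp of adult H3K27ac. Cdkn1a, Cdkn1b, Cdkn1c and Cdkn2d touched none. Of 30 Polycomb subunits, 3 touched fetal domains, Bmi1 and Cbx8 of PRC1 among them, and 0 touched adult ones. The Bmi1 domain reached 8.69% of the gene body, and adult domains covered 65.2% of that domain without touching the gene. The Cbx8 domain held the whole gene, a state kept under 1 of the 7 alternatives, against 5 for Bmi1 and 6 for Cdkn2c. H3K27ac lay at 27 of the 30 subunits in fetal and 30 in adult HPC, against 56.7% and 64.1% of all coding genes. Of 19 Wnt ligands, 9 touched fetal (47.4%) and 3 touched adult domains (15.8%). Wnt1, Wnt2, Wnt7a, Wnt8b, Wnt10b and Wnt16 were in fetal domains alone, and 0 were in adult ones alone. All 6 lost the fetal domain with the strongest 20 Mb of each list, and their state was kept under 1 to 4 of the 7 alternatives. Adult domains covered 80.7% of the fetal domain at Wnt7a without touching the gene. Of 41 Bmp, Fgf and hedgehog ligands and antagonists, 13 touched fetal (31.7%) and 11 adult domains (26.8%), and Shh, Fgf23 and Gdf10 were in adult domains alone. With a minimum of 5 kb these 3 also lay in fetal domains, and their state was kept under 2, 2 and 0 of the 7 alternatives. Of 35 imprinted genes, Grb10, a brake on insulin signalling, and Calcr, the calcitonin receptor, were in both and Ascl2 and Rasgrf1 in fetal domains alone. Of 46 neural adhesion, receptor and channel genes, 24 and 19 were inside. Of 57 clustered protocadherins, the 14 of the alpha cluster touched domains of both ages and 16 of the gamma cluster touched fetal domains alone. The median share of the body inside was 9.14% for fetal and 0% for adult domains over the 57. Genes of 1 cluster can touch the same domain, so these are not separate cases. Olfactory receptors (42 and 37 of 1100), vomeronasal receptors (5 and 4 of 352) and Krueppel-type Zfp genes (2 and 2 of 360) stood below the background.

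Markers of other cells that the sorts could hold were also counted. Hepatocyte markers, relevant because fetal blood forms in the liver, had 2 of 20 in fetal domains (Apob and Cyp2e1) and 3 in adult ones (Apob, Fga and Tat). H3K27ac lay at 5 of the 20 in fetal and 6 in adult HPC, against 56.7% and 64.1% of all coding genes. Endothelial markers had 0 of 16 at either age and stromal markers 2 and 1 of 17. In percent these were 10% and 15% of the hepatocyte and 11.8% and 5.88% of the stromal markers, beside 6.51% and 4.98% of all coding genes, with wide intervals (5.24 to 36.0 for the adult hepatocyte share). The part of such cells in the domains was not tested.

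Fetal and adult domains coincided in part. Of the fetal domains, 1056 overlapped an adult domain (48.8%, 46.7 to 50.9), 826 touched adult peaks but no adult domain (38.2%) and 282 touched no adult peak (13.0%). Of the adult domains, 1100 overlapped a fetal domain (56.0%, 53.8 to 58.2), 763 touched fetal peaks but no fetal domain (38.8%) and 102 touched no fetal peak (5.19%). The shared span was 21.0 Mb, which is 45.7% of the fetal and 52.5% of the adult span. Overlap rose with width. It was 39.1% for fetal domains of 10 to 20 kb, 64.4% for 20 to 50 kb and 92.5% for over 50 kb, and 46.6%, 72.3% and 97.3% for adult ones. A wider domain has more room to meet another, so these shares are not compared with each other.

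The 3 adult domains with the most fetal H3K27ac, among those that touched no fetal domain, lay at Igf2bp3, Lin28b and Igf2bp1, which are known for high expression in fetal stem cells. H3K27ac played no part in calling the domains. These 3 were picked from them by their fetal H3K27ac, so high fetal values there follow from the ranking. The adult domain at the upper-coordinate end of Igf2bp3 (chr6:49211424-49224640, 13.2 kb, 5 peaks) held 6015 bp of fetal and 0 bp of adult HPC H3K27ac. The adult domain over the Lin28b promoter printed above (chr10:45466774-45493420, 26.6 kb, 18 peaks) held 5391 bp of fetal and 0 bp of adult H3K27ac. The printed promoter lies within the annotated gene body, which runs on to 109.7 kb from its lower-coordinate end. Another fetal H3K27ac peak lay at that far end, from 108.6 to 109.9 kb. The adult domain at Igf2bp1 (chr11:95991895-96023371, 31.5 kb, 13 peaks) held 2226 bp of fetal and 0 bp of adult H3K27ac, and was the widest adult domain that touched no fetal peak. Igf2bp1 and Igf2bp3 bind messenger RNA, are targets of let-7 and are expressed in embryos far more than in adults. The next domain in this order, at the RNA-binding gene Rbms3, held 889 bp. The folds at the 3 loci were modest, with highest values of 4.01 at Lin28b, 4.04 at Igf2bp1 and 3.98 at Igf2bp3. Fetal H3K27me3 (titles) peaks covered 13.1% of the Lin28b domain and 0% of the domains at Igf2bp1 and Igf2bp3. The 4 fetal peaks in the Lin28b domain lay beyond the upper-coordinate end of the gene, which is its 5′ side on the minus strand. At Igf2bp3 adult H3K27ac lay elsewhere in the gene, the nearest peak at 122 to 124 kb from its lower-coordinate end, with the domain from 126 kb on. Fetal H3K27ac also lay outside the domains in Igf2bp3 and Lin28b. H3K4me1 of HPC covered 6360 bp of the Lin28b domain in the fetal and 3930 bp in the adult list.

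The fetal programme list as a whole had 12 members, of which 2 touched a fetal and 5 an adult domain. Ncam1, a neural adhesion gene, and Sox17, an endoderm and fetal HSC factor, were in both, and Lin28b, Igf2bp1 and Igf2bp3 in adult domains alone, against a background of 1.26%. Arid3a, Hmga1, Hmga2, Igf2bp2, Lin28a, Mycn and Plagl1 touched none at either age. These genes were known from earlier results of these data, so the list is no independent support. The adult domain at Lin28b and at Igf2bp1 was found under 4 of 7 other ways of making domains, and at Igf2bp3 under 2 of 7, while a fetal domain was found at the 3 genes under 0 of 7. With a gap of 2 kb, with peaks of −log10 q of 2 or more alone, or with at least 50% of the domain under peaks, no adult domain was called at the 3 genes.

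**Figure D4:**
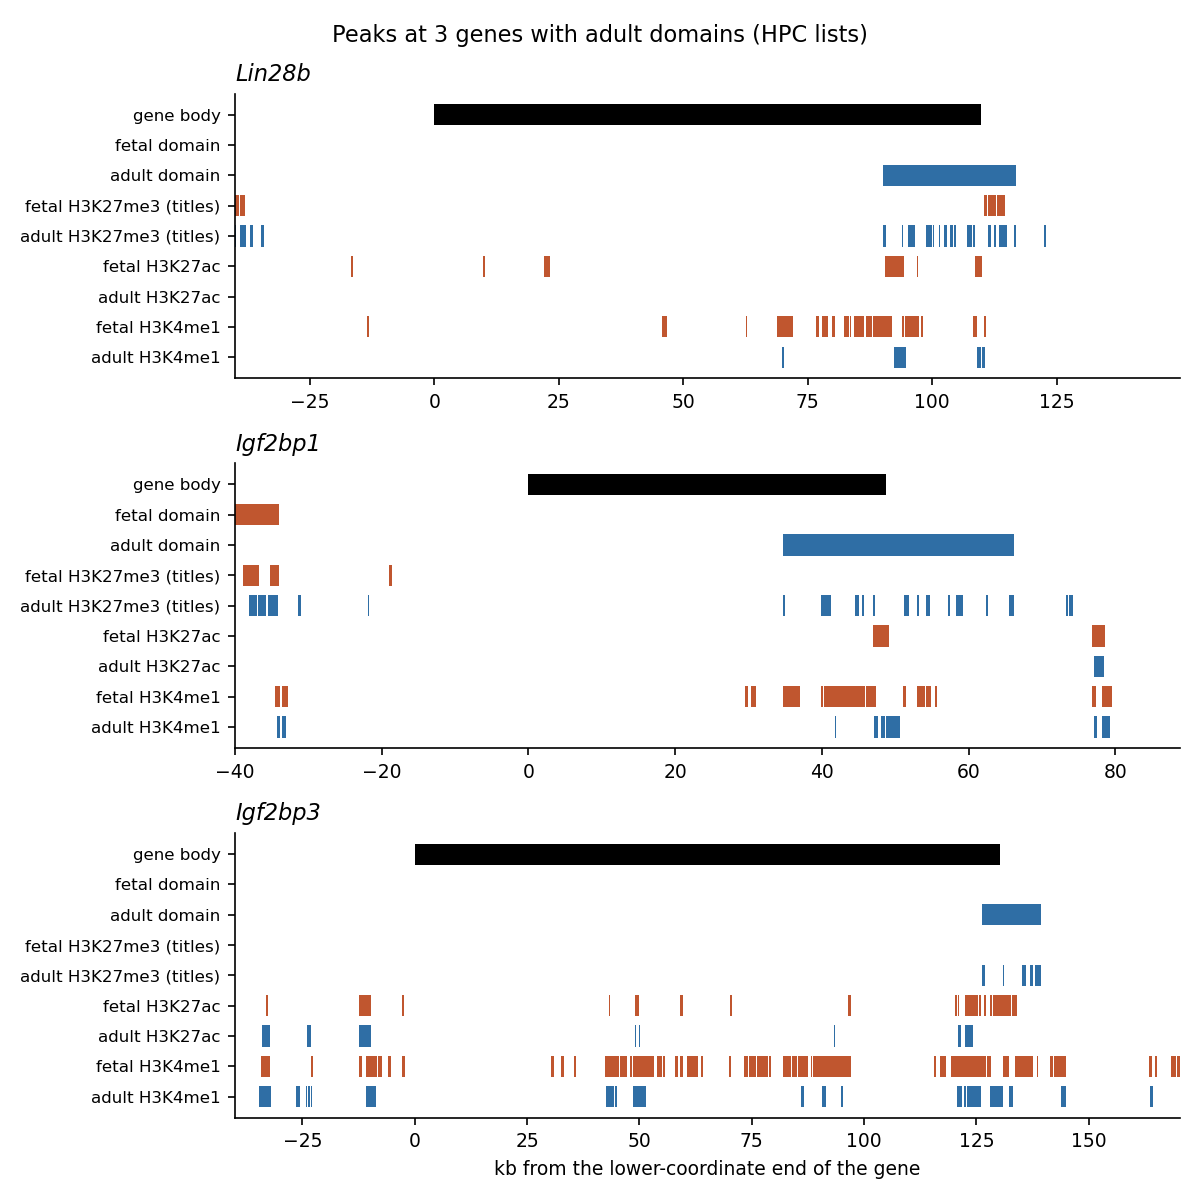
Gene bodies, domains and HPC peaks at Lin28b, Igf2bp1 and Igf2bp3 by distance in kb from the lower-coordinate end of the gene, fetal in orange and adult in blue. Adult domains and fetal H3K27ac peaks overlap at the upper-coordinate end of each gene, with 0 bp of adult H3K27ac inside the domains, while at Igf2bp3 adult H3K27ac peaks lie elsewhere in the gene.

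In the other direction, fetal domains that touched no adult domain were ranked by adult H3K27ac. Apbb2, an adaptor of the amyloid precursor protein, led with a domain of 71.9 kb and 3817 bp of adult against 1735 bp of fetal H3K27ac, and a domain at the predicted genes Gm10499 and Gm8909 followed with 3375 and 0 bp. This order depended on how domains were made, and Apbb2 did not lead with a gap of 2 or 10 kb, a minimum of 5 kb, peaks of −log10 q of 2 or more, the strongest 20 Mb or at least 50% under peaks. The domain at Gpsm2 and Aknad1 held 3237 bp, that at Egr3, an immediate early factor, 3223 bp against 385 bp fetal, and that at Nr3c2, the mineralocorticoid receptor, 3216 bp against 383 bp fetal. The domain over Wnt10b, Wnt1 and Ddn (37.5 kb) held 2788 bp of adult and 990 bp of fetal H3K27ac. The domain 97932 bp from Irs2 held 2616 bp and that at Arhgef12, Tlcd5 and Pou2f3 held 2136 bp, both with 0 bp fetal. The widest fetal domain that touched no adult domain spanned 133 kb at chr1:81835608-81968181, 264924 bp from Irs1, with 59 peaks and 0.161% under adult peaks. The widest that touched no adult peak at all lay at Styk1, a kinase-like gene (60.0 kb), and at Pcdh9, a protocadherin (56.9 kb).

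H3K27ac was sparse in domains of its own age. It touched 2.50% of the fetal domains (1.92 to 3.24), against 10.1% of flanks of equal width placed beside them, a difference of -7.57 points (-8.74 to -6.37). In the adult list the shares were 1.63% and 8.89%, a difference of -7.26 points (-8.42 to -6.10). The difference was present at the domain edges. Fetal H3K27ac covered 0.511% of the bases in the 5 kb outside fetal domain edges and 0.0815% in the 5 kb inside, and adult H3K27ac 0.522% and 0.0566% at adult edges. At 40 to 50 kb outside, the values were 1.05% and 1.44%. H3K27ac of the other age was more frequent than that of the same age. Adult H3K27ac alone touched 113 fetal domains and fetal H3K27ac alone 26, while 28 had both. In adult domains fetal H3K27ac alone touched 57, adult alone 27 and both 5. The H3K27ac lists held 50285 fetal and 62383 adult autosomal peaks, so list length moves with the fetal result and against the adult one.

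This other-age H3K27ac was more frequent where the other age had no domain. Adult H3K27ac touched 12.8% of the fetal domains without any adult peak and 4.07% of those overlapping an adult domain, a difference of 8.69 points (5.03 to 13.2). Fetal H3K27ac touched 5.11% of the adult domains that met fetal peaks but no fetal domain and 1.73% of those overlapping a fetal domain, a difference of 3.38 points (1.73 to 5.29). For the 102 adult domains without any fetal peak the share was 3.92%, and its difference of 2.19 points did not exclude 0 (-0.376 to 7.96). Most domains of every class held no H3K27ac of either age.

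H3K4me1 touched a larger share of domains than of their flanks, while by bases the difference was small in fetal HPC and at the edges. HPC H3K4me1 touched 43.0% of the fetal domains and 28.8% of their flanks, a difference of 14.3 points (11.7 to 16.8), and 39.3% and 27.2% in the adult list, a difference of 12.1 points (9.46 to 14.8). HSC H3K4me1 gave 51.4% against 32.1% in the fetal and 44.7% against 29.5% in the adult list. By bases, HPC H3K4me1 covered 4.05% of the fetal domains and 3.82% of their flanks, and 5.57% and 3.36% in the adult list. In the 5 kb inside, the 5 kb outside and at 40 to 50 kb outside the edges it covered 2.99%, 2.87% and 4.80% in the fetal and 4.14%, 4.28% and 4.53% in the adult list. HSC and HPC were sorted apart, so the HSC values come from cells that the domains were not called in. By class, adult HPC H3K4me1 touched 59.6% of the fetal domains that overlapped an adult domain and 32.6% of those without an adult peak, a difference of -26.9 points (-32.9 to -20.5). The widths of these classes also differed, with medians of 19.1 and 13.5 kb.

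At gene starts in domains, adult and fetal H3K4me1 differed. Starts shared by several genes were counted once. Starts inside domains were split by promoter sequence, and a promoter was called CpG-rich when its 300 bases had an observed over expected CpG of 0.6 or more and 50% or more of G and C. Of 261 CpG-rich starts in domains of both ages, adult HPC H3K4me1 lay within 500 bases of 240 (92.0%, 88.0 to 94.7) and fetal HPC H3K4me1 of 92 (35.2%, 29.7 to 41.2). HSC gave the same order, with H3K4me1 at 248 of the 261 in the adult and 110 in the fetal list. Among 8764 CpG-rich starts whose promoter was not wholly inside a domain, the HPC shares were 72.5% and 51.9%. H3K27ac lay at 89.2% of these in adult and 79.3% in fetal HPC, against 2.68% and 0.383% of those in domains of both ages. Of the 218 other starts in domains of both ages, 48.2% and 30.7% had adult and fetal HPC H3K4me1. The adult share stayed above the fetal one with a window of 250 bases (84.3% and 19.9%) and with the strongest 50000 H3K4me1 peaks of each age (52.5% and 3.45%), alternatives chosen after seeing the data. The fetal list held 174599 and the adult list 124508 autosomal H3K4me1 peaks, and the part of library depth and peak calling in this difference was not tested.

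The peaks that made the domains left a gap at CpG-rich starts. These were all such starts in domains of each age, 474 fetal and 344 adult, and not only those in domains of both ages. Fetal peaks covered 6.87% of the bases within 0.5 kb of CpG-rich starts in fetal domains, 56.2% at 1 to 3 kb on either side and 31.6% at 5 to 10 kb. Adult peaks covered 2.69%, 40.3% and 19.6% at CpG-rich starts in adult domains. Adult H3K4me1 of HPC filled that gap with 68.1% of the bases within 0.5 kb and 20.2% at 1 to 3 kb. Fetal H3K4me1 covered 10.7% within 0.5 kb and 13.0% at 1 to 3 kb, and so had shoulders in place of a summit. At the other starts the gap was shallower, with 24.0% of bases under fetal and 13.8% under adult peaks within 0.5 kb.

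**Figure D5:**
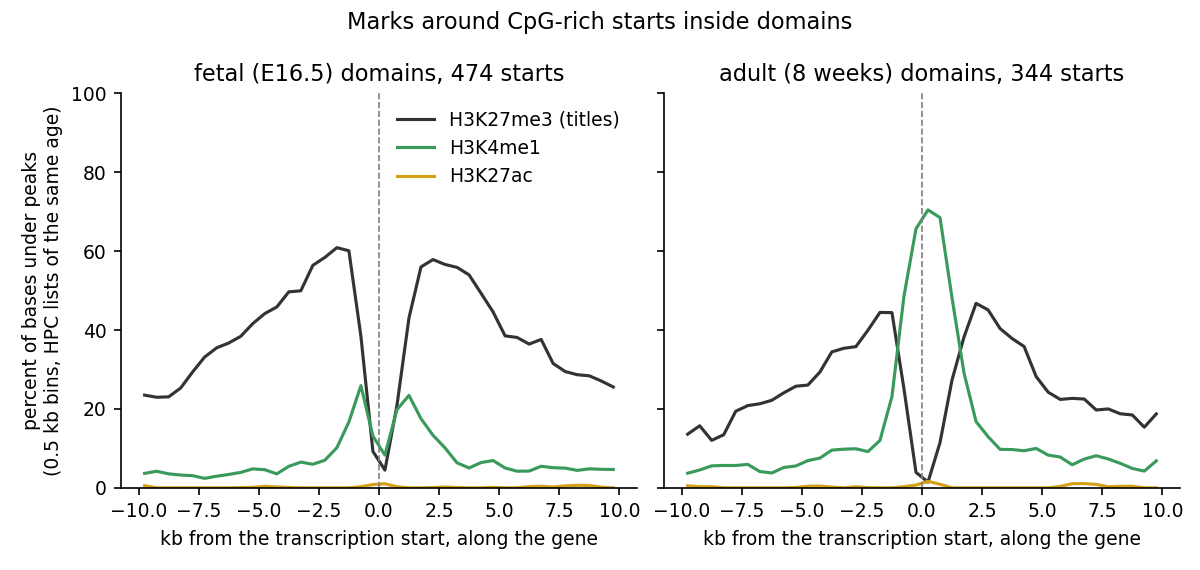
Percent of bases under peaks in bins of 0.5 kb from 10 kb before to 10 kb after CpG-rich starts inside fetal (474 starts) and adult (344 starts) domains, for the HPC lists of the same age. H3K27me3 (titles) dips at the start at both ages, adult H3K4me1 peaks there at 68.1% within 0.5 kb, fetal H3K4me1 stands at 10.7%, and H3K27ac stays near the axis.

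CpG content itself differed modestly. Of 20085 RefSeq promoters, 4.74% lay wholly in a fetal and 3.31% in an adult domain. The 479 promoters in domains of both ages held a median of 18 CpG in 300 bases, and 54.5% were CpG-rich. The 18947 promoters not wholly inside a domain, here with each gene's own entry kept where starts are shared, held a median of 13 and 46.3% were CpG-rich, a difference of 8.15 points (3.62 to 12.6). Promoters in a fetal domain alone (474) or an adult domain alone (185) stood at 44.9% each, near that value.

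MicroRNA genes are short and were placed by their hairpins. They were chosen after their values were seen. Of 919 autosomal hairpins, 22 lay in a fetal domain (2.39%) and 24 in an adult domain (2.61%), with 16 in both, 6 in a fetal domain alone and 8 in an adult domain alone. The mature forms below are those with a known part in development or in blood, with the seed (bases 2 to 8) in capitals and the sequences from RefSeq.
miR-9-5p: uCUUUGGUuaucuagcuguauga
miR-137-3p: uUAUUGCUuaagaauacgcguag
miR-196a-5p: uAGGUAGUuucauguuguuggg
miR-10b-5p: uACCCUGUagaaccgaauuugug
miR-125b-5p: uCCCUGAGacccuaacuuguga
miR-34b-5p: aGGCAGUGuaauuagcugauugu
miR-449a-5p: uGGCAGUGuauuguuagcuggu
miR-449c-5p: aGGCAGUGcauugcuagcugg

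The 3 genes of the neural microRNA miR-9 (Mir9-1 on chromosome 3, Mir9-2 on chromosome 13 and Mir9-3 on chromosome 7) all lay in domains of both ages, and they share the seed CUUUGGU. Their fetal domains spanned 28.1, 49.6 and 89.4 kb and their adult domains 27.6, 43.1 and 83.6 kb. Mir137, also neural, lay in 28.6 kb in fetal and 10.7 kb in adult HPC. Mir196a-1 and Mir196a-2, which target Hox messages and share the seed AGGUAGU, lay in the HoxB and HoxC domains, and Mir10b in the HoxD domains. Mir125b-1, a gene of the miR-125 family that expands blood stem cells, lay in a fetal domain of 21.1 kb and in no adult domain. The seed GGCAGUG is shared by Mir34b, Mir449a and Mir449c. Mir34b, with its neighbour Mir34c, lay in a fetal domain alone (18.3 kb), and the Mir449 pair in an adult domain alone (11.8 kb).

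Many domains held no coding gene. They made up 34.9% of the fetal (32.9 to 36.9) and 40.4% of the adult domains (38.2 to 42.5), and lay a median of 53.2 and 55.1 kb from the nearest coding gene. Some lay beside the regulators named above. A fetal stretch of 63.5 kb lay 36492 bp from Cdkn2b and an adult one of 68.9 kb lay 2438 bp from Foxb1, a forkhead factor of the neural tube. The stretch that holds Mir9-3, of 89.4 kb in fetal HPC, lay 13936 bp from Polg. Osmr, a receptor of oncostatin M, was nearest to a fetal stretch of 128 kb and an adult one of 78.3 kb.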

How the data were processed

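ChIPmentation (antibody-bound chromatin tagged by Tn5) of sorted HSC and HPC gave the reads, per the labels' protocols. Novoalign, MACS2 and the build mm10 (GRCm38) are named in the submitters' processing notes, while versions, the peak filter and the use of input are not stated there. The authors deposited 1 filtered peak list per group, with a fold (ratio of signal over background), a −log10 p-value and a score that is the −log10 q-value per peak, used here only to describe, rank or filter peaks within a list. Lists of 2 to 4 pooled libraries were used, 8 in all. Per-sample columns left unused numbered 0.

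Peaks on the 19 autosomes were joined at gaps of 5 kb or less, and domains of 10 kb or more were kept. Overlap meant 1 bp or more. Flanks were intervals of the width of the domain on either side, without those meeting another domain. Coding gene bodies came from the RefSeq table of GRCm38.p6, which has no exons or strand, promoters and microRNAs from RefSeq sequence tables of that build. Of 671 list names, 8 were not matched. The members and the gene lists were chosen with earlier results of these data known. Named were, per age, the 10 widest domains, the 10 widest that touch no peak or no domain of the other age, the 10 with most H3K27ac of the other age, up to 4 members of each list by bases inside and up to 4 by age difference, and every member of lists of 15 genes or fewer. Genes of longer lists named for their class, microRNAs, start-site profiles and domains without genes were picked with their values in view, not by the rule. Some genes are not reported here. Joining and overlap were tested on simulated data (500 of 500 domains recovered). Python 3.11.15, pandas 2.3.3, numpy 2.4.6, statsmodels 0.14.6 and matplotlib 3.10.9 were used. Alternatives changed the gap, width, peak strength, covered bases and overlap minimum.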

Additional observations from a re-analysis of the deposited data

Results flagged for a closer look

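Chromosome X was outside the autosomal domains, and the same joining there gave a signal that differed between the lists. It gave 19 regions of 10 kb or more in the fetal and 235 in the adult list, from 743 and 6736 peaks. They made up 0.870% of all fetal and 10.7% of all adult domains of autosomes and X together, and the adult ones spanned 4.36 Mb with a median width of 14.8 kb. The peaks on X were 1.37% of the fetal and 12.4% of the adult list. The sex of the animals is not given in the sources used here, and the 2 ages come from different pooled libraries, so age cannot be told apart from other differences between the pools.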

How the results depend on the processing

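Peak lists were pooled, so the results could not be recomputed without single libraries. No paired analysis was possible because each group has 1 pooled list and no test was run. Counts and shares follow as fetal and adult values. The number of domains was 787 and 344 with a 2 kb gap, 3589 and 3026 with a 10 kb gap, 4895 and 4210 with a 5 kb minimum, 710 and 645 with a 20 kb minimum, 1225 and 267 with peaks of −log10 q of 2 or more, and 533 and 48 with at least 50% of the domain under peaks. With the strongest peaks up to 20 Mb in each list there were 763 fetal domains, and the ratio of fetal to adult domains turned from 1.10 to 0.520. The share of domains overlapping one of the other age was 25.7% and 63.4% (2 kb gap), 52.7% and 60.6% (10 kb gap), 45.5% and 52.6% (20 kb minimum), 15.8% and 82.4% (q), 64.1% and 33.9% (20 Mb), 7.13% and 77.1% (50% under peaks) and 42.4% and 48.6% where 50% of the domain had to be shared. With the 5 kb minimum the adult share was 59.0%. Which age showed the larger overlap thus turned with equal covered bases. The share with H3K27ac of the same age was 1.02% and 0% (2 kb gap), 4.43% and 2.88% (10 kb gap) and 0.739% and 0.305% with the strongest 20000 H3K27ac peaks, and 4.17% in adult domains 50% under peaks. The share of developmental regulators in domains was 42.9% and 18.7% (2 kb gap), 59.7% and 46.3% (20 kb minimum), 66.0% and 22.8% (q), 43.7% and 4.48% (50% under peaks) and 62.7% and 53.0% where 50% of the gene body had to lie inside. With 20 Mb it was 57.1% and 59.3%, so that the order of the ages turned, and it was 72.8% and 70.9% in adult domains with the 10 kb gap and the 5 kb minimum. The cause of these shifts was not tested. The other settings moved these values by less than their interval or by less than 1.5 times for counts. Unknown depth and 1 list per age limit every comparison between ages.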
